A study of Mus musculus with 87 samples.

Results

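The 7 genes described here, Hand2, Tbx2, Tbx5, Tbx20, Nkx2-5, Gata5 and Mef2c, encode transcription factors of the developing heart. They were chosen by name as cardiac transcription factors and were read by gene symbol in all 13 deposited expression comparisons, each of which lists 26171 gene symbols. Expression was measured by sequencing polyadenylated RNA from the mouse embryonic stem cell (ESC) line 129-B13, grown in serum with LIF, and from neuronal precursors (NP) made from such cells through embryoid bodies with retinoic acid from day 4 and harvest on day 8. The lines differ in Suz12, which belongs to the Polycomb complex PRC2 and whose exon 4 is alternatively spliced. In ESC the groups were wild type (WT, 3 samples), WT with constitutive exon 4 (CSex4, 2), cells with exon 4 deleted (Deltaex4, 2) and the full Suz12 knock-out (KO, 3). A further 4 groups of 2 samples each were knock-out cells with a rescue by the long isoform (KO-L) or the short isoform (KO-S), and the same rescues, placed in the Rosa26 locus, that carry a mutation named 3D, at position 196 and thus beyond exon 4 (KO-L3D and KO-S3D). In NP there were 4 WT samples and 2 each of CSex4 and Deltaex4, of KO, and of the rescues KO-L and KO-S. All rescue lines carry the knock-out of the endogenous gene, and the labels do not say how many clones stand behind a line or which culture a replicate came from, so that p-values measure the spread between these samples only.

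PRC2 places methyl groups on lysine 27 of histone H3 (H3K27me3), a mark of silenced genes, and in stem cells it covers many genes of later development. Cardiac transcription factors are textbook members of that class. Nkx2-5 (a homeobox factor), Gata5 (a zinc finger factor of the GATA family), the T-box factors Tbx5 and Tbx20, the basic helix-loop-helix factor Hand2 and the MADS-box factor Mef2c act together in the heart-forming mesoderm, while Tbx2 is a T-box repressor of the working muscle programme in the non-chamber heart. None of the 7 is restricted to the heart. Gata5 is also known from endoderm, Tbx20 and Hand2 from neurons, Tbx2 and Tbx5 from the developing eye and limb, and Mef2c from skeletal muscle and brain.

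Every one of the 7 genes overlapped both a Suz12 region and an H3K27me3 region in the deposited lists of regions, which the file headers name for DiffBind, WT and a false discovery rate of 5%. Across 20992 protein-coding genes the share with such an overlap was 11.7% for Suz12 and 21.0% for H3K27me3. Coordinates are in mm10, the mouse build that the submitters' processing notes name. The lists do not state which groups were compared or in which direction a region changed. All chromatin samples of the series were ESC, so the regions do not describe NP. The region at Hand2, chr8:57317580-57341975, was 24396 bp wide and covered the whole gene, wider than nearly all of the 2865 Suz12 regions (percentile 99.8). Whole genes were also covered at Tbx2 (chr11:85828409-85845501, 17093 bp) and at Nkx2-5 (chr17:26836690-26846307, 9618 bp). The large gene Tbx5 held Suz12 regions at chr5:119801826-119806510 and chr5:119830227-119843007, the second of them 12781 bp wide. At Tbx20 a region of 6815 bp, chr9:24769314-24776128, spanned the start site, and a further 2 lay within 10000 bp outside the gene. The narrowest regions belonged to Gata5 (chr2:180332938-180335603, 2666 bp, percentile 61.5) and Mef2c (chr13:83523172-83525527, 2356 bp, percentile 51.6), against a median width of 2307 bp over the list. The H3K27me3 regions were likewise widest at Hand2 (45742 bp) and narrowest at Gata5 (6537 bp) and Mef2c, where the widest of 3 separate regions held 6219 bp.

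**Figure D1:**
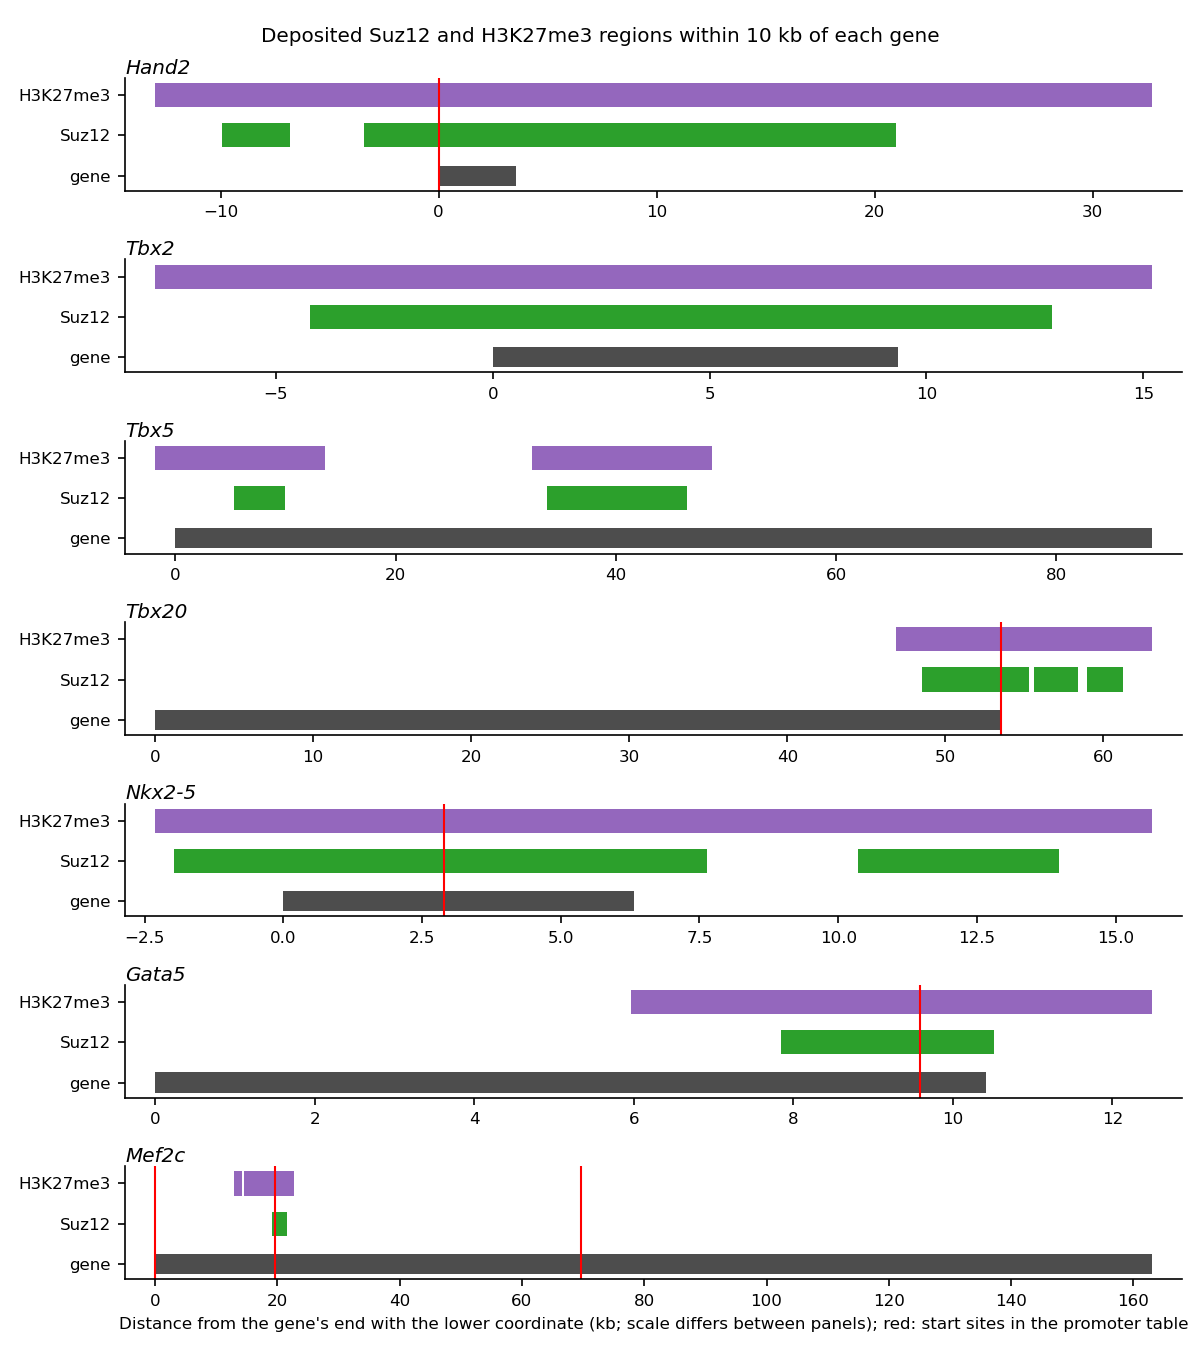
Deposited Suz12 (green) and H3K27me3 (purple) regions within 10000 bp of each gene, against the gene's annotated span (dark grey), in kb from the gene's end with the lower coordinate. Red lines mark start sites in the promoter table. Regions cover Hand2, Tbx2 and Nkx2-5 whole, lie around the start of Tbx20 and Gata5, and at Mef2c hold only the second of 3 start sites.

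Start sites were found in the RefSeq promoter table (GRCm38.p6) for 5 of the 7 genes, Hand2, Tbx20, Nkx2-5, Gata5 and Mef2c. Each of the 5 had a start site inside a Suz12 region, against 8.78% of 16829 genes in that table. Mef2c had 3 start sites, and only the second lay inside a Suz12 and an H3K27me3 region. The 250 bases before the start are shown for Tbx20 and Hand2, the gene called in most comparisons below and the gene with the widest region, and for the first and second starts of Mef2c, which show a start outside and a start inside a region of 1 gene. Capitals mark CG dinucleotides, which read the same on both strands. They run from 5′ to 3′ on the gene's strand, for Tbx20 (minus strand, chr9:24774304-24774553), Hand2 (plus, chr8:57320733-57320982), the first Mef2c start (plus, chr13:83503784-83504033) and the second Mef2c start (plus, chr13:83523406-83523655).
Tbx20: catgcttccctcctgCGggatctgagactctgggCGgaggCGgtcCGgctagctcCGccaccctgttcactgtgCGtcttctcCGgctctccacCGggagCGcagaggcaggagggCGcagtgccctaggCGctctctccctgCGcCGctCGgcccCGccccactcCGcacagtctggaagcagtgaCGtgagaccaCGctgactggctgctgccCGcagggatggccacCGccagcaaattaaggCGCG
Hand2: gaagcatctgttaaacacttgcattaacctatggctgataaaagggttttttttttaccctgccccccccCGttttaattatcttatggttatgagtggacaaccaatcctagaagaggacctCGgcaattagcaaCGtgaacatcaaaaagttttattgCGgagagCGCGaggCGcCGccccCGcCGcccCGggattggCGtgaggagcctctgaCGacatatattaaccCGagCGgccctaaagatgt
Mef2c first start: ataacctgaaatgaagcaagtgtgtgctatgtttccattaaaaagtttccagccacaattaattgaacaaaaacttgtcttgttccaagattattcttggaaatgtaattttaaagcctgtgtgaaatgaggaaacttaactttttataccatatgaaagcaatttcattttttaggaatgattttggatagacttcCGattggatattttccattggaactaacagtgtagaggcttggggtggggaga
Mef2c second start: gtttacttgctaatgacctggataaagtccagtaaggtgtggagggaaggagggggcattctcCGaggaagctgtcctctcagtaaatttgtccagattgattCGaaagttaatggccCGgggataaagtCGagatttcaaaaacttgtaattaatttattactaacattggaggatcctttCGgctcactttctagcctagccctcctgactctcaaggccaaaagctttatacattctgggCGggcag
The Tbx20 window held 22 CG dinucleotides, a number reached by 14.8% of all 32851 windows of this length in the table, and the Hand2 window held 15 (27.3%). The first Mef2c window held 1 (92.1% of windows had as many or more) and the second held 6, which is also the median of all windows. The window of Gata5 held 22, like Tbx20, and that of Nkx2-5 held 8.

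The deposited comparisons give a mean over libraries for each gene, and whole reads of single libraries could be recovered from these means for all 7 genes (all 91 means were given back by whole reads). Libraries were tied to groups by which comparisons contain them, and their replicate numbers are not known, so the order in which libraries of a group are listed is arbitrary, though it is the same for every gene. The deposited tables held between 26085140 and 31499803 scaled reads per library, and relative size factors lay between 0.855 and 1.26 in ESC and between 0.859 and 1.64 in NP. In 6 of the 7 ESC comparisons, all but KO, the fold change rests on 2 of the 3 WT libraries (the first had almost no weight), here the second and the third listed. The authors' deposited tables gave Suz12 itself a log2 fold change, KO against WT, of -1.82 ± 0.22 (SE) for ESC and -2.14 ± 0.33 for NP. The libraries labelled KO-L3D had a Suz12 value of -1.85 ± 0.28 against WT in the authors' deposited table, near that of KO, and those labelled KO-S3D had -0.06 ± 0.42. With 2 or 3 libraries a side, an exact permutation test of a single gene cannot fall below 0.333 or 0.10, and the tests given here are the authors' own, fitted over all genes. In bulk RNA, fewer cells that express a gene and less RNA per cell cannot be told apart.

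Loss of Suz12 in ESC was followed first. In the authors' deposited table, KO against WT, 5 of the 7 genes were higher in KO than in WT, Hand2, Tbx2, Tbx5, Tbx20 and Nkx2-5, and none was lower. The threshold, here and below, was an adjusted p below 0.05. The background was 18.3% of 16918 genes called in either direction. Their median log2 fold change was 3.41, beside 0.06 over the 20920 genes with a p-value. Gata5 and Mef2c did not pass the test.

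Nkx2-5 had 4, 6 and 3 reads in the WT libraries and 67, 59 and 46 in the KO libraries. Every KO library was far above every WT library, and the authors' deposited table gave a log2 fold change of 3.67 ± 0.70 (adjusted p 5.44e-06). Tbx5, which marks the first heart field and the forelimb, had 4, 0 and 2 reads in WT and 33, 28 and 49 in KO, a log2 fold change of 4.25 ± 1.04 in the authors' deposited table (adjusted p 6.77e-04). Tbx20 varied widely in WT, with 134, 102 and 15 reads, against 444, 317 and 287 in KO. The groups did not overlap, and the log2 fold change was 2.35 ± 0.48 in the authors' deposited table (adjusted p 2.44e-05). Leaving out the WT library with 15 reads took the ratio of mean scaled reads, without a test, from 2.04 to 1.55 (log2).

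Hand2 was nearly silent in WT, with 0, 1 and 0 reads, and had 50, 40 and 31 reads in KO. The authors' deposited table gave a log2 fold change of 6.74 ± 1.40 (adjusted p 3.63e-05), which rests on a single WT read. Per scaled library the ratio of 121 to 1 reads was 115, with an exact 95% interval from 20.3 to 4594 that covers counting error only. The antisense gene at the Hand2 locus, Hand2os1, had a mean of at most 0.614 scaled reads in any ESC comparison, and whether the counting used strand is not given in the sources used here. Tbx2 had 2, 4 and 2 reads in WT and 45, 16 and 31 in KO, and the authors' deposited table gave 3.41 ± 0.92 (adjusted p 0.00250). In Gata5 the highest WT library, with 12 reads against 2 and 1, exceeded all KO libraries (8, 3 and 3), and the log2 fold change was 0.33 with a 95% interval from -2.40 to 3.07 in the authors' deposited table. Mef2c had 5, 10 and 2 reads in WT and 4, 4 and 2 in KO (-0.63, interval -3.36 to 2.11, authors' deposited table). The intervals of Gata5 and Mef2c thus include changes of several fold in either direction. Of the 2414 genes that overlap both kinds of region, 2143 had an adjusted p. Among them 624 were called higher and 78 lower in KO, beside 18.3% of all tested genes called in either direction. The median log2 fold change of these region genes was 0.76.

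**Figure D2:**
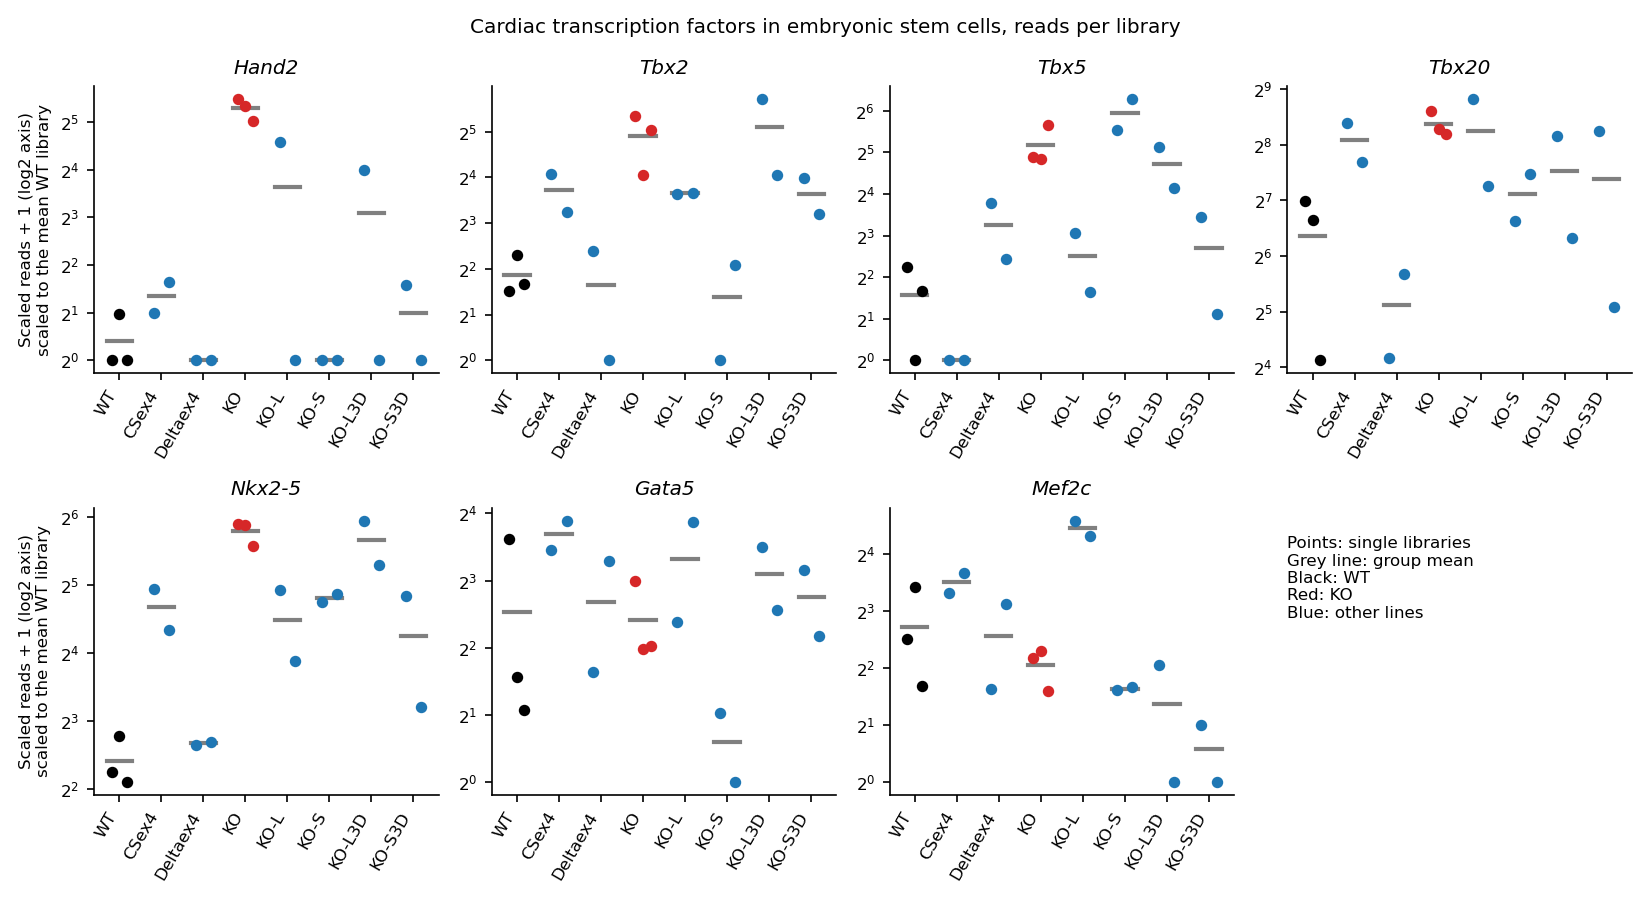
Scaled reads (reads divided by the library's relative size factor, plus 1, log2 axis) of the 7 genes in each ESC library, by group, with points for single libraries (WT black, KO red, other lines blue) and grey lines for group means. Hand2, Tbx2, Tbx5, Tbx20 and Nkx2-5 lie above all WT libraries in each KO library, while Gata5 and Mef2c overlap WT. Within KO-L, KO-L3D and KO-S3D the libraries of a group lie far apart for Tbx20.

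The rescue lines in ESC were compared with WT to see how far each line lies from it. Suz12 RNA itself was called lower than WT in both rescues in the authors' deposited tables. The values were -1.05 ± 0.28 in KO-L (adjusted p 0.0143) and -0.83 ± 0.27 in KO-S (adjusted p 0.0345). In KO-L only Tbx20 was called among the 7, and it was higher than WT (background 2.23% of 13880 genes). In KO-S only Tbx5 was called, also higher (7.91% of 14472). Most of the 7 had no adjusted p in these comparisons (KO-L had 1 of the 7 with one, KO-S 3). Such genes could not be called.

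Tbx20 had 430 and 144 reads in KO-L and 95 and 164 in KO-S, against 134, 102 and 15 in WT. The KO-L libraries were both above WT, and the authors' deposited table gave 2.64 ± 0.54 (adjusted p 2.65e-04). Without the KO-L library of 430 reads, the ratio of mean scaled reads over all 3 WT libraries fell from 1.90 to 0.91 (log2, no test). In KO-S 1 library lay within the WT range and 1 above it, and the log2 fold change of 1.64 ± 0.64 was not called (adjusted p 0.0997, authors' deposited table). Of these genes only Tbx20 could be tested between the rescues: KO-L exceeded KO-S by 1.00 ± 0.84 (adjusted p 0.693; background 4.21% of 13759 genes), which was not called.

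Tbx5 was high in KO-S. It had 44 and 71 reads there, 7 and 2 in KO-L, 33, 28 and 49 in KO and 4, 0 and 2 in WT. The KO-S libraries reached or passed the KO range, and the authors' deposited table gave a log2 fold change against WT of 5.96 ± 1.50 (adjusted p 0.00217). KO and KO-S did not differ beyond error for Tbx5 (KO minus KO-S -1.70, 95% interval -5.28 to 1.87), Tbx20 (0.71, -0.86 to 2.28) or Nkx2-5 (1.06, -2.05 to 4.17), with 0 of these 3 called and a background of 3.77% of 14472 genes. The intervals span several fold, so they do not show that the lines are alike. The KO value rests on 3 WT libraries and the KO-S value on 2 of them. Over all 3, the ratio of mean scaled reads of Tbx5 against WT was 4.16 in KO and 4.95 in KO-S (log2, no test). Nkx2-5 itself had 25 and 26 reads in KO-S and 28 and 13 in KO-L, in every case between the WT range of 3 to 6 and the KO range of 46 to 67.

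Hand2 had 0 reads in both KO-S libraries, a count that allows up to 3 reads over the group. In KO-L it had 22 reads in 1 library and 0 in the other. Tbx2 had 0 and 3 reads in KO-S, within the WT range of 2 to 4 or below it, and 11 and 11 in KO-L. Gata5 had 4 and 13 in KO-L and 1 and 0 in KO-S. Mef2c stood highest of all ESC groups in KO-L, with 22 and 18 reads against 2 and 2 in KO-S and 2 to 10 in WT, and had no adjusted p in either comparison. The ESC KO and KO-L values of Tbx20 were close (KO minus KO-L -0.29, interval -1.71 to 1.13; background 0.62% of 13879 genes). They rest on different WT libraries. Over all 3, the ratio of mean scaled reads against WT was 2.04 in KO and 1.90 in KO-L (log2, no test).

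Markers of fibroblasts and smooth muscle moved with the ESC lines. Of the 5 fibroblast markers, 3 were called higher in KO-L and 3 in CSex4. Over the 4 whose reads were recovered in ESC (Col1a2, Col3a1, Dcn, Lum), the sum of scaled reads was 105 to 142 in WT, 664 to 791 in KO-L and 351 to 633 in CSex4. It was 52.0 to 359 in KO and 50.7 to 76.8 in KO-S. In the libraries labelled KO-L3D it was 0.979 to 30.8 and in KO-S3D 2.34 to 14.9, with up to 3 of the 4 markers at 0 in a library. Of 4 smooth muscle markers, 1 was called higher in KO-L (median 1.90) and none in CSex4 (median 3.10), while 3 were called lower in KO-L3D and 2 in KO-S3D. Of 8 cardiomyocyte markers 1, Actc1, was called higher in KO-L (3.75 ± 0.92) and in CSex4 (3.89 ± 0.92) in the authors' deposited tables. Summed over the 7 with recovered reads, they had 140 to 169 in WT, 309 to 384 in KO-L and 252 to 747 in CSex4. KO had 216 to 324. T, a T-box relative, was also called higher in KO-L (4.96 ± 0.80) and CSex4 (4.71 ± 0.82). Mef2c reads were highest in KO-L (22 and 18) and lowest in KO-L3D (4 and 0) and KO-S3D (1 and 0). The part of such other cell types in the Mef2c and Tbx20 values was not tested.

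The 3D lines were compared with WT in the same way. In the libraries labelled KO-L3D, Nkx2-5 and Tbx20 were called higher than WT (background 18.3% of 15275 genes), and in KO-S3D none of the 7 was called (3.23% of 14307), where only Tbx20 had an adjusted p. Nkx2-5 had 77 and 39 reads in KO-L3D, both far above WT and reaching the KO range, with 3.45 ± 1.22 in the authors' deposited table (adjusted p 0.0315). In KO-S3D it had 28 and 7.

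Tbx20 reads were unequal within both 3D lines, at 361 and 81 in KO-L3D and 304 and 28 in KO-S3D. The KO-L3D libraries overlapped WT, the only called value of the 27 in which groups overlapped, and the authors' deposited table gave 1.86 ± 0.59 (adjusted p 0.0142). Without the library of 361 reads the ratio of mean scaled reads fell from 1.18 to -0.027 (log2, no test). Hand2 had 19 and 0 reads in KO-L3D, also unequal, and 2 and 0 in KO-S3D, which lie within the 3 reads that a count of 0 allows. Tbx5 had 43 and 17 reads in KO-L3D and 10 and 1 in KO-S3D, and Tbx2 65 and 16 against 15 and 7. Neither passed in KO-L3D in the authors' deposited table (adjusted p 0.0656 for Tbx5 and 0.104 for Tbx2). Gata5 (13 and 5 in KO-L3D, 8 and 3 in KO-S3D) and Mef2c (4 and 0, 1 and 0) stayed at low reads.

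For Tbx20, the only gene of the 7 with an adjusted p on both sides, no difference was called: KO-L3D minus KO-L was -0.79 ± 0.80, KO-S3D minus KO-S -0.37 ± 1.18 and KO-L3D minus KO-S3D 0.59 ± 1.15. The backgrounds of these differences were 5.38%, 0.752% and 0.056% of genes. The 95% intervals were wide, from -2.35 to 0.78, from -2.69 to 1.94 and from -1.68 to 2.85.

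The exon 4 lines in ESC were compared with WT to read these genes with the exon always included or deleted. Suz12 RNA itself was at 0.02 ± 0.31 in CSex4 and -1.28 ± 0.40 in Deltaex4 against WT in the authors' deposited tables, neither of them called. Of the 7, only Tbx20 was called in CSex4, and it was higher (background 2.41% of 13811 genes). In Deltaex4 none was called, as for all 20263 genes tested there (0%; 135 genes had an unadjusted p under 0.05, none of them among the 7). Tbx20 had 335 and 193 reads in CSex4, both above all WT libraries, and 16 and 46 in Deltaex4, within the WT range of 15 to 134. The authors' deposited tables gave 2.62 ± 0.69 (adjusted p 0.0126) and -0.48 ± 1.02. Over all 3 WT libraries, the ratio of mean scaled reads in CSex4 was 1.74 (log2, no test). The difference between the lines, 3.10 ± 1.23, was not called (p 0.0117, adjusted p 0.598; background 0.0796%), and it was called when the standard errors were taken as correlated at 0.5 for the shared WT libraries (adjusted p 0.0284). Nkx2-5 stood at 30 and 18 reads in CSex4 and 5 and 5 in Deltaex4, Tbx2 at 16 and 8 against 4 and 0, and Tbx5 at 0 and 0 against 12 and 4. The first and the second of these had both CSex4 libraries above all WT libraries, without an adjusted p. Hand2 (1 and 2 reads, 0 and 0), Gata5 (10 and 13, 2 and 8) and Mef2c (9 and 11, 2 and 7) did not leave the range of 0 to 13 reads in either line. Fibroblast markers, Actc1 and T were also higher in CSex4, with the values given above, and 3 of 6 pluripotency markers were called lower there.

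**Figure D3:**
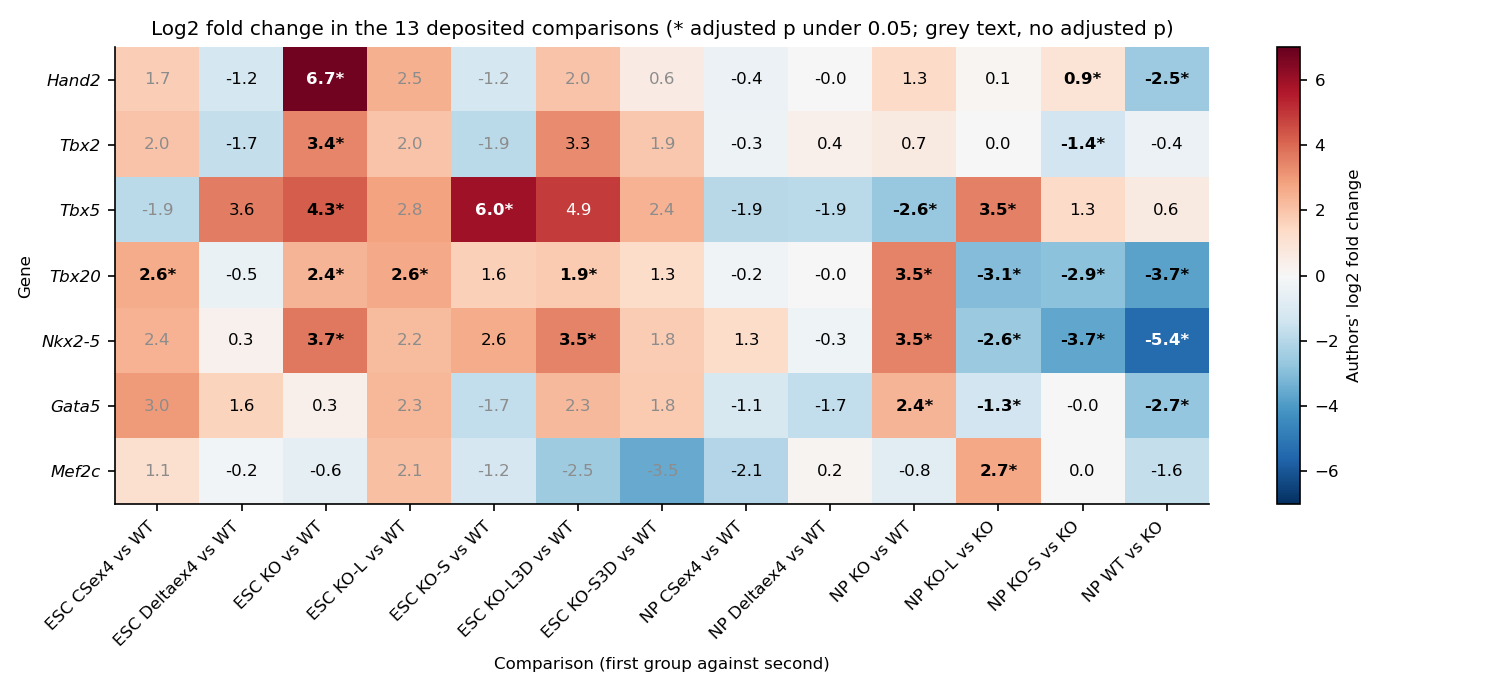
The authors' log2 fold change (colour and number) of the 7 genes (rows) in each of the 13 comparisons (columns), first group against second. An asterisk marks an adjusted p under 0.05 and grey text the absence of an adjusted p. Tbx20 was called in 8 comparisons and Nkx2-5 in 6, Mef2c in 1.

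In NP all 7 genes had an adjusted p in every comparison. Levels below are reads divided by the library's size factor, on a scale set by the mean of the KO libraries. The ESC and NP scales are not linked. The 4 WT libraries enter as separate pairs: the first pair was compared with CSex4, Deltaex4 and KO, and the second pair with the same KO libraries in a comparison of its own.

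In NP KO, Tbx20, Nkx2-5 and Gata5 were called higher and Tbx5 lower than in the first WT pair (background 21.4% of 16410 genes called). Against the second WT pair, Tbx20, Nkx2-5, Gata5 and Hand2 were lower in WT (32.9% of 17214). Tbx20, Nkx2-5 and Gata5 were thus called with either pair, and Hand2 and Tbx5 with 1 pair each. No gene of the 7 differed between the pairs when the difference itself was tested (0 of 16380 genes, background 0%; 327 genes had an unadjusted p under 0.05, none of the 7). With standard errors correlated at 0.5 for the shared KO libraries, Nkx2-5 (p 0.0113, adjusted p 0.440), Mef2c (0.0146, 0.509), Tbx5 (0.0367, 0.765) and Hand2 (0.0466, 0.851) had an unadjusted p under 0.05 and were still not called.

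Tbx20 stood at 79.1 and 31.8 scaled reads in the first WT pair, at 47.6 and 38.4 in the second, and at 615 and 524 in KO. Both KO libraries were above all WT libraries by several fold. The authors' deposited tables gave log2 fold changes of 3.47 ± 0.52 for KO against the first pair (adjusted p 8.48e-10) and -3.73 ± 0.41 for the second pair against KO (adjusted p 1.61e-18). Nkx2-5 had 15.0 and 12.7, then 3.66 and 3.75 in WT, and 163 and 147 in KO, with 3.48 ± 0.72 (adjusted p 2.47e-05) and -5.39 ± 0.78 (adjusted p 1.10e-10) in the authors' deposited tables. Gata5 had 140 and 85.5, then 95.8 and 75.9 in WT, and 491 and 656 in KO. The authors' deposited tables gave 2.37 ± 0.44 (adjusted p 2.01e-06) and -2.73 ± 0.40 (adjusted p 2.27e-10). Gata5, which overlapped between the groups in ESC, did not overlap here.

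Hand2 was called with the second WT pair only, and the difference between the pairs was not called (-1.23 ± 0.87). Its WT libraries had 162 and 37.3, then 54.3 and 19.7 scaled reads, and the KO libraries had 159 and 243. The highest WT library lay within the KO range. Against the first pair the log2 fold change was 1.31 ± 0.61 (adjusted p 0.111), and the second pair against KO gave -2.54 ± 0.63 (adjusted p 3.44e-04) in the authors' deposited tables. Tbx5 had 142 and 93.7 in the first pair, 33.6 and 23.4 in the second, and 24.6 and 13.8 in KO. It was called lower in KO against the first pair (-2.63 ± 0.79, adjusted p 0.00694), while the second pair was 0.60 ± 1.08 above KO (adjusted p 0.731) and overlapped it, in the authors' deposited tables. Mef2c had 71.6 and 53.7, then 17.7 and 7.50 in WT and 44.4 and 29.7 in KO, between the pairs, and was not called. For Tbx2 the WT libraries (438, 806, 604 and 841) overlapped KO (1232 and 711), with 0.65 ± 0.37 (adjusted p 0.220) in the authors' deposited table.

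Markers of other cell types moved with the knock-out in NP, here first against the first WT pair. Of 6 neural precursor markers, 5 were called lower in KO, with a median log2 fold change of -3.08. Of 6 primitive endoderm markers, 3 were called higher (median 1.15), among them Foxa2 and Gata4, and of 4 smooth muscle markers 1 was (Tagln). For 8 cardiomyocyte markers 1 was called higher (Myl7) and 1 lower (Actn2), and their summed scaled reads were 176 to 445 in WT and 451 to 1056 in KO. At most 1 of the 8 was at 0 in a WT library and none in KO. Of 5 fibroblast markers 2 were called lower and of 5 endothelial markers 1. With the second WT pair, the neural markers again gave 5 lower in KO and the primitive endoderm markers 3 higher. There no fibroblast marker was lower and 1 was higher in KO, with 2 endothelial and 3 smooth muscle markers higher, and of 6 pluripotency markers 4 were higher and 1 lower. The part of a changed mix of cells in the values of the cardiac factors was not tested.

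**Figure D4:**
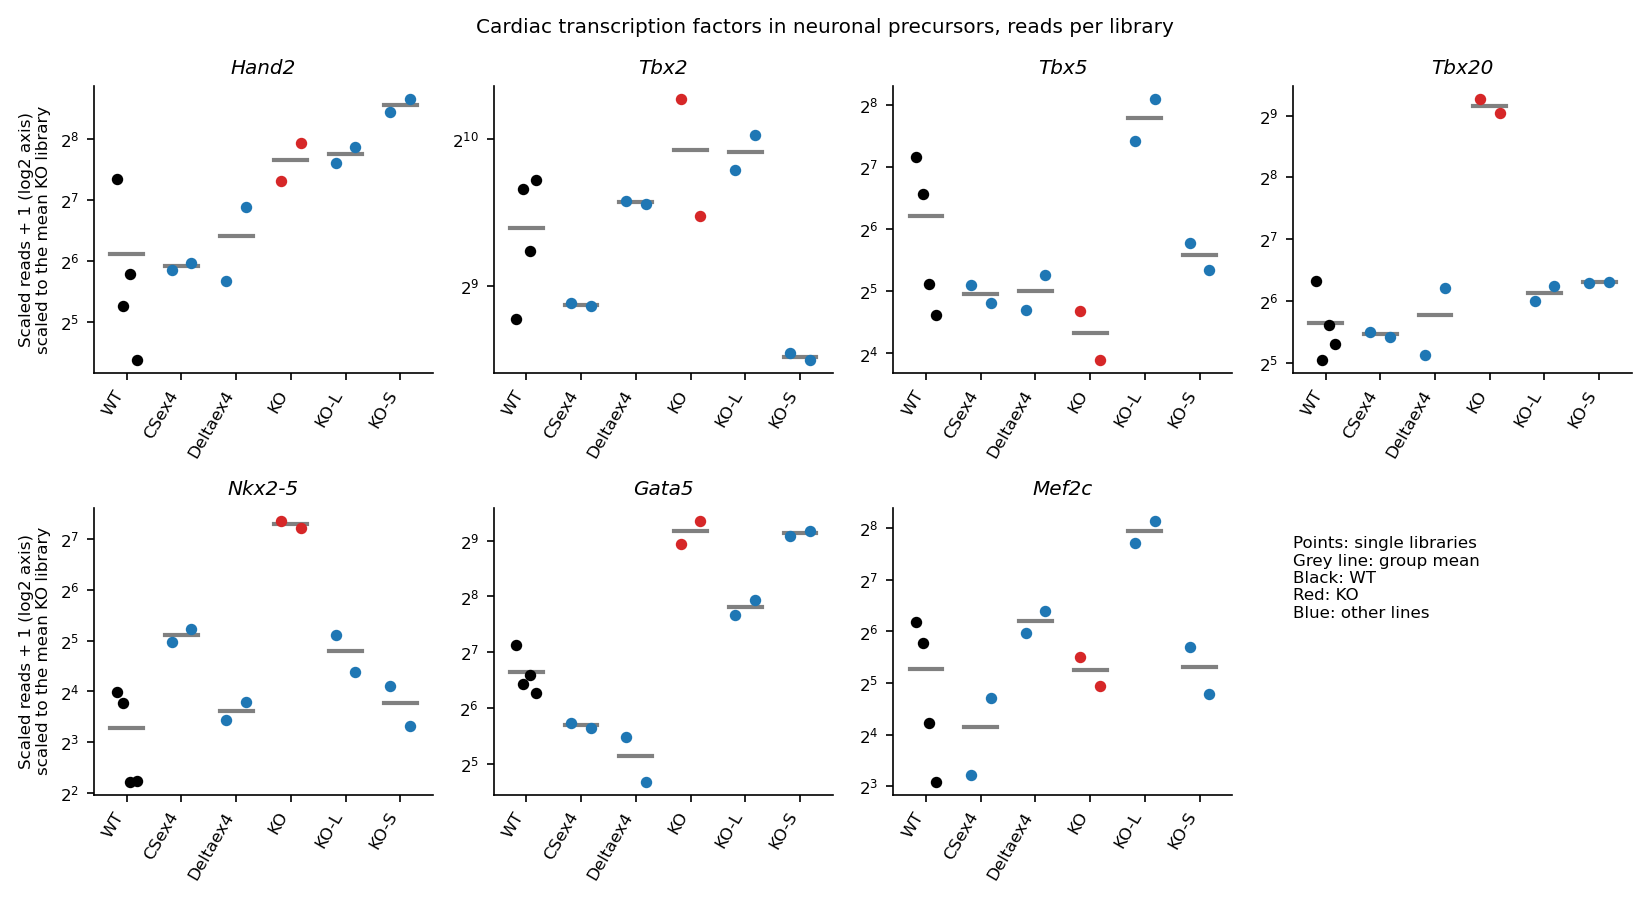
Scaled reads (plus 1, log2 axis) of the 7 genes in each NP library, by group, with points for single libraries (WT black, KO red, other lines blue) and grey lines for group means. The KO libraries stand above all others for Tbx20 and Nkx2-5, Gata5 is equally high in KO and KO-S, and Tbx5 and Mef2c are highest in KO-L.

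The rescue lines in NP were compared with KO, to see which genes differ in each line. Suz12 RNA itself was called higher than KO in both, at 1.35 ± 0.21 in KO-L and 1.09 ± 0.20 in KO-S in the authors' deposited tables. Against KO, the long isoform lowered Tbx20, Nkx2-5 and Gata5 and raised Tbx5 and Mef2c (background 24.7% of 16678 genes). In KO-S, Tbx20, Nkx2-5 and Tbx2 were called lower than in KO and Hand2 higher (34.5% of 16253). Tbx20 and Nkx2-5 moved the same way in both rescues, whose comparisons share the KO libraries.

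Tbx20 had 63.1 and 74.5 scaled reads in KO-L and 77.5 and 78.5 in KO-S, against 615 and 524 in KO and 31.8 to 79.1 in WT. Both rescues lay within the WT range only through its highest library, 79.1 in the first pair. They were above every other WT library. The authors' deposited tables gave -3.05 ± 0.35 for KO-L (adjusted p 2.33e-16) and -2.86 ± 0.32 for KO-S (adjusted p 2.68e-17). Nkx2-5 had 33.5 and 19.8 in KO-L, above all WT libraries (3.66 to 15.0). In KO-S it had 16.3 and 8.95, which overlapped the first WT pair and lay above the second. Against KO the values were -2.57 ± 0.58 (adjusted p 9.88e-05) and -3.66 ± 0.62 (adjusted p 5.39e-08) in the authors' deposited tables. Between the rescue lines no difference beyond error was found for Tbx20 (KO-L minus KO-S -0.19, 95% interval -1.12 to 0.75) or Nkx2-5 (1.08, -0.59 to 2.75).

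Gata5 differed between the rescue lines. It had 203 and 246 scaled reads in KO-L and 540 and 579 in KO-S, against 491 and 656 in KO and 75.9 to 140 in WT. In KO-S it thus stayed at the KO level, and in KO-L it lay between KO and WT. The log2 fold changes against KO were -1.35 ± 0.31 in KO-L (adjusted p 1.05e-04) and -0.02 ± 0.25 in KO-S (interval -0.52 to 0.48) in the authors' deposited tables. The difference, -1.33 ± 0.40, was called (adjusted p 0.0131), as were those of Tbx2 and Mef2c, 3 of 7 against a background of 9.86% of 16117 genes.

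Tbx2 differed in the other direction. KO-S had 373 and 361 scaled reads, below every other NP library, where KO had 1232 and 711, KO-L 885 and 1040, and WT 438 to 841. The authors' deposited tables gave -1.35 ± 0.26 for KO-S (adjusted p 2.91e-06) and 0.03 ± 0.28 for KO-L, and KO-L exceeded KO-S by 1.39 ± 0.39 (adjusted p 0.00617). The KO-S libraries thus combined the lowest Tbx2 with Gata5 at the KO level.

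Mef2c and Tbx5 were high in KO-L. Mef2c had 208 and 283 scaled reads in KO-L, against 50.7 and 26.8 for KO-S. KO libraries stood at 44.4 and 29.7, and no WT library exceeded 71.6. The authors' deposited tables gave 2.72 ± 0.50 against KO in KO-L (adjusted p 5.79e-07) and 0.03 ± 0.80 in KO-S, a difference of 2.70 ± 0.95 (adjusted p 0.0451). Tbx5 had 169 and 271 in KO-L, above all 4 WT libraries (23.4 to 142), and 53.6 and 39.8 in KO-S, with 3.50 ± 0.57 (adjusted p 1.35e-08) and 1.32 ± 0.87 (adjusted p 0.248) in the authors' deposited tables. For Tbx5 the difference of 2.18 ± 1.04 was not called (adjusted p 0.206), and it was called with standard errors correlated at 0.5 for the shared KO libraries (adjusted p 0.0236). The antisense gene Hand2os1 had at most 10.7 scaled reads on average in any NP comparison. Hand2 stood at 195 and 234 in KO-L and 348 and 404 in KO-S, the highest of all NP groups, against 159 and 243 in KO. The authors' deposited tables gave 0.93 ± 0.33 in KO-S (adjusted p 0.0167) and 0.12 ± 0.39 in KO-L, and their difference of -0.81 ± 0.51 was not called (adjusted p 0.405).

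Fibroblast markers moved with KO-L here as well. Of the 5, 3 were called higher in KO-L and 2 in KO-S. Over the 4 with recovered reads in NP (Col1a1, Col1a2, Dcn, Lum), the sum was 6206 to 6467 scaled reads in KO-L, 1774 to 1862 in KO-S, 580 to 1011 in KO and 525 to 2766 in WT. Endothelial markers were called higher in 4 of 5 cases in KO-L and lower in 3 of 5 in KO-S. Of the primitive endoderm markers, 5 of 6 were called lower in KO-L and 6 of 6 in KO-S, and of the neural precursor markers 4 and 6 were called higher, with 1 lower in KO-L. Pluripotency markers were called higher in 4 of 6 cases in KO-L (median 2.13), with 1 lower, and in KO-S 1 was higher and 2 lower. Of 4 smooth muscle markers 1 was called higher in KO-L, and 2 were called lower in KO-S. The part of such cells in the values of Tbx5, Mef2c and Gata5 was not tested.

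**Figure D5:**
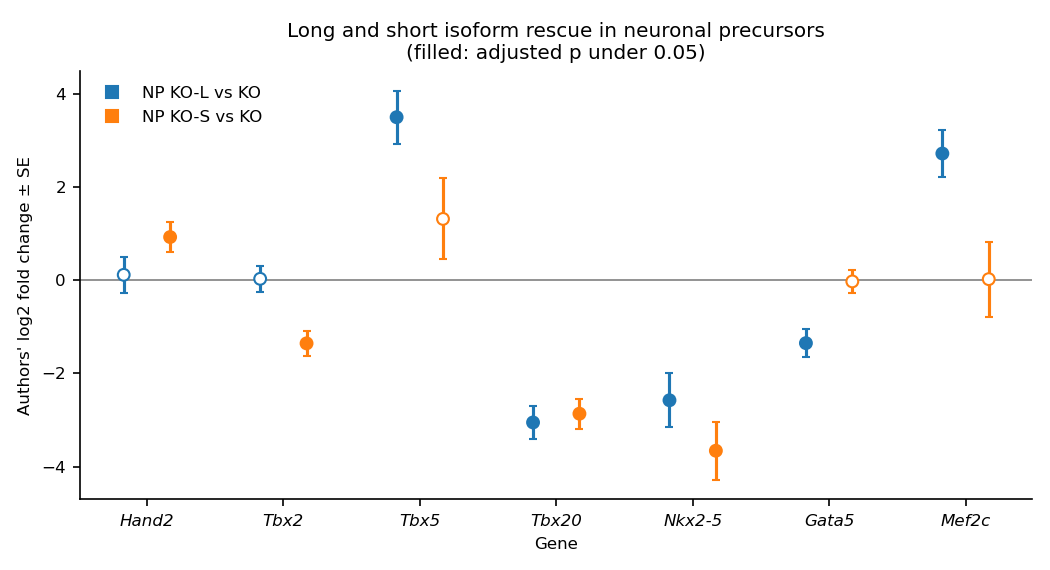
The authors' log2 fold changes (± SE) against KO of the 7 genes in the NP rescues with the long (KO-L, blue) and short (KO-S, orange) isoform. Filled points have an adjusted p under 0.05. Tbx20 and Nkx2-5 are low in both, Gata5 only in KO-L, Tbx2 only in KO-S, and Mef2c is high in KO-L, with the difference called for Gata5, Tbx2 and Mef2c.

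In the exon 4 lines in NP, Suz12 RNA was at 0.70 ± 0.30 in CSex4 and -0.61 ± 0.33 in Deltaex4 against WT (authors' deposited tables, neither called). The 7 genes were uncalled in both lines. None passed in CSex4 (background 5.53% of 15603 genes) or in Deltaex4 (0.0809% of 17315), and 2 of the 7 had an unadjusted p under 0.05 in each, in the authors' deposited tables. Over all genes this held for 2421 of 21321 in CSex4 and 398 of 20917 in Deltaex4. Tbx5 came closest in CSex4, with 33.2 and 27.2 scaled reads against 142 and 93.7 in the first WT pair (-1.94 ± 0.67, adjusted p 0.0628, authors' deposited table). In Deltaex4 Tbx5 had 25.1 and 37.4, and the libraries of the second WT pair, 33.6 and 23.4, lay at that same level. Gata5 had 52.5 and 49.1 in CSex4 and 43.8 and 24.6 in Deltaex4, below all 4 WT libraries in both lines, without a call. Nkx2-5 had 30.4 and 36.6 in CSex4, above all WT libraries, and 9.84 and 12.8 in Deltaex4. Mef2c stood at 8.29 and 25.1 in CSex4 and 61.7 and 83.6 in Deltaex4, groups that did not overlap, and the difference of -2.29 ± 1.17 between the lines was not called (adjusted p 0.464; background 1.81% of 15579 genes, 0 of the 7 called). Hand2 (57.1 and 61.6, then 50.1 and 118), Tbx2 (472 and 467, then 764 and 752) and Tbx20 (44.2 and 41.8, then 34.0 and 72.8) lay within the WT range in both lines. Pluripotency markers were called higher in NP CSex4 in 4 of 6 cases and endothelial markers in 3 of 5, while 3 of 6 neural precursor markers were called lower. Their part in these values was not tested.

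The effect of the knock-out was compared between the cell types, each against its own WT and with no library in common. In NP this was the first WT pair. For 3 of the 7 genes it differed, against a background of 13.7% of 15693 genes. NP minus ESC was -5.42 ± 1.53 for Hand2 (adjusted p 0.00543), -2.75 ± 0.99 for Tbx2 (adjusted p 0.0424) and -6.88 ± 1.31 for Tbx5 (adjusted p 6.56e-06). Tbx5 was higher in KO than in WT in ESC, and lower in KO than in the first WT pair in NP. Against the second pair, KO in NP gave 2.54 for Hand2, 0.39 for Tbx2 and -0.60 for Tbx5. Those values were not tested against ESC. In ESC these fold changes stand against WT libraries with 0 to 4 reads, whereas in NP all WT libraries expressed the genes. Tbx20 (1.12, interval -0.26 to 2.50), Nkx2-5 (-0.18, -2.15 to 1.79), Gata5 (2.04, -0.83 to 4.91) and Mef2c (-0.14, -3.35 to 3.07) were not called.

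Genes of the same programme were followed as lists. In ESC KO, 8 of 25 other cardiac regulators were called higher and 1 lower (median 1.42), led by Isl1, a factor of the second heart field (4.42 ± 0.70), and Tbx18, of the sinus horn and epicardium (3.91 ± 0.68), in the authors' deposited table. The lower one was Hopx (-0.84 ± 0.31). Of 22 family paralogs of the 7 genes, 11 were called higher and none lower (median 2.55), led by Nkx2-3 (4.49 ± 1.31). Of 18 contractile and secreted genes, which are targets of the cardiac programme, 3 were called higher (median 0.49), or 3 of the 16 with an adjusted p, which is near the 18.3% of all genes called. They were led by the light chain genes Myl4 (2.69 ± 0.45) and Myl7 (2.68 ± 0.44) in the authors' deposited table. The first and second lists share 8 genes. Over all genes the median was 0.06. In the libraries labelled KO-L3D, the counts were 6 regulators (median 0.29), 7 paralogs (2.29) and 5 contractile and secreted genes (1.51) called higher and none lower, beside a median of 0.10 over all genes. Hand1, a relative of Hand2, led there (6.08 ± 0.36, authors' deposited table), while Hand2 had 19 and 0 reads. The share of all genes called was 18.3% there too. In KO-S, 2 regulators, 3 paralogs and 2 contractile genes were called higher, beside 7.91% of all genes called in either direction (18 regulators, 14 paralogs and 11 contractile genes had an adjusted p). For KO-L the counts were 2, 4 and 1, beside 2.23%. None was called lower in either line.

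In NP KO, 6 of the 25 regulators were called higher and 1 lower (median 0.92), led by Hopx (2.18 ± 0.50) and Gata4 (1.85 ± 0.35), with Hey1 lower (-1.38 ± 0.50), in the authors' deposited table. Over all genes 21.4% were called in either direction, while 22 regulators, 20 paralogs and 14 contractile genes had an adjusted p. Hopx had opposite signs in ESC and NP, a difference that was not tested. Of the paralogs, 9 were called higher and none lower (median 1.60), and Nkx2-9 (4.27 ± 0.69) and Nkx2-3 (4.02 ± 0.92) led. Of the contractile and secreted genes, 3 were called higher and 1 lower (median 1.06), with Myl7 (4.56 ± 0.49) and Myl3 (3.55 ± 0.42) at the top and Actn2 at the bottom (-3.35 ± 0.72) in the authors' deposited table. The median over all genes was 0.02. For the second WT pair against KO, the lists gave 8, 11 and 5 genes called lower in WT and 1, 0 and 0 higher. There 22, 20 and 17 of their genes had an adjusted p, and 32.9% of all genes were called. The contractile count, 5 of 17, was near that share.

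In NP KO-L against KO, the regulators split into 4 higher and 5 lower (median -0.07). Smyd1, a methyltransferase gene of heart and skeletal muscle, rose most (4.08 ± 0.38) and Hopx fell most (-3.53 ± 0.34) in the authors' deposited table. The paralogs gave 3 higher and 7 lower (median -1.35), and the contractile genes 2 higher and 3 lower (median -0.11). There Actn2 (3.20 ± 0.57) and Tnni1 (2.94 ± 0.46) rose while Myl7 (-2.86 ± 0.40) and Myl3 (-2.85 ± 0.40) fell in the authors' deposited table. In KO-S against KO the counts were 2 higher and 8 lower for the regulators (median -0.50), 0 and 9 for the paralogs (median -0.90) and 2 and 4 for the contractile genes (median -0.13), with medians over all genes of -0.01 in KO-L and -0.04 in KO-S. The share of all genes called was 24.7% for KO-L and 34.5% for KO-S. The contractile counts, 5 of 18 and 6 of 15 with an adjusted p, were near these shares. Nkx2-3 fell in both rescues (-4.97 ± 0.93 and -4.66 ± 0.86, authors' deposited tables), as Nkx2-5 did.

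The likeness of patterns over the 13 comparisons was described by the root mean square difference of log2 fold changes among 16755 genes with a mean of at least 1 in every comparison, a filter that 6 of the 7 passed (not Hand2). Among these 6, Tbx20 and Nkx2-5 were the closest pair (0.97), and Tbx5 and Mef2c the farthest (3.96). The other genes nearest to Tbx20 were Lor (0.70) and Pax1 (0.74), beside a median distance of 2.42 over all genes. Nearest to Nkx2-5 were Cdkn2a (0.72) and Nppb (0.95; median 2.96), the latter a natriuretic peptide gene of the heart. For Tbx2 they were 2510009E07Rik (0.79) and Tnik (0.79; median 1.95), for Gata5 Hmga2 (0.83) and Gal3st1 (0.88; median 2.04), and for Mef2c Sulf1 (0.95) and the collagen gene Col1a2 (0.97; median 1.90). These distances are descriptions, since the comparisons share libraries. Every comparison also counted equally, so ESC values with few reads and large errors enter, such as Tbx5 in CSex4 (-1.88 ± 4.93, authors' deposited table).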

How the data were processed

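Polyadenylated RNA was sequenced in 32 samples and chromatin in 55, all of the latter ESC, of which 2 lists of regions were used here. The submitters' processing notes name TopHat, Bowtie, DESeq2, DiffBind and the builds mm10 and dm3, with no versions. Each of 13 deposited tables holds, per gene, the mean of the authors' normalized counts over its libraries (a signal, per the file headers), a log2 fold change with its standard error, the test statistic (a score, per the file headers), and the p-value and adjusted p-value of the authors' test. No count table was used, so the authors' statistics stand as the test of each gene, and calls below use 0.05 as the limit of the adjusted p. The 2 region lists, named for WT, give coordinates and a value whose kind and direction the files do not state, at a false discovery rate of 5% per the file headers.

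Because the deposited means carry many digits, the whole reads behind a mean were found by searching for the reads and size factors that give it back, and all 91 means of the 7 genes were given back with a relative error of at most 4.07e-15. Matching reads linked 60 places in the tables to 32 libraries. Reads were divided by relative size factors, set to the mean WT library in ESC and the mean KO library in NP. In 6 ESC comparisons, genes with a single read in the first-listed WT library had an absolute log2 fold change of at most 0.235, against at least 1.05 for such genes of the other libraries, so that this library carried almost no weight there.

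Differences between comparisons were the differences of the authors' log2 fold changes over the root of the summed squared standard errors, with a two-sided normal p adjusted by Benjamini and Hochberg over all genes with an adjusted p in both. Shared libraries make that error too large. The method was run on simulated differences drawn with these same errors and without shared libraries. Such data cannot test whether the errors are right. A region belonged to a gene when it overlapped the gene of GRCm38.p6, or lay within 2500 or 10000 bp of it where stated. Intervals of log2 fold changes were built from the authors' standard errors, and intervals of differences from the root of the summed squares. The interval of the Hand2 read ratio and the floors (3 reads for a count of 0) cover counting error only. All 7 genes are named. From each companion list up to 2 called genes with the largest rise and fall are named, Foxa2, Gata4 and Tagln having been picked from marker lists after their values were seen. The genes nearest in pattern to Tbx5 are not reported here. The genes and lists were chosen with earlier results of these data known. Python 3.11.15, NumPy 2.4.6, pandas 2.3.3, SciPy 1.17.1 and Matplotlib 3.10.9 were used.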

Additional observations from a re-analysis of the deposited data

Results flagged for a closer look

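A tested difference between groups drew attention to 6 results. In NP, the log2 fold change of KO-L minus that of KO-S, both against KO, was 1.39 for Tbx2, -1.33 for Gata5 and 2.70 for Mef2c. The effect of the knock-out in NP, against the first WT pair, minus that in ESC was -5.42 for Hand2, -2.75 for Tbx2 and -6.88 for Tbx5. No library was flagged as far from the others of its group in the 7 groups of 4 NP WT libraries that could be examined, 1 for each gene. These libraries still ran from 7.50 to 71.6 scaled reads for Mef2c and from 19.7 to 162 for Hand2, so they are not shown to be alike. Groups with fewer libraries were not examined.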

How the results depend on the processing

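The number of genes called among the 7 changed with the threshold in CSex4 and KO-L3D ESC, where 1 and 2 calls became 0 and 0 at an adjusted p under 0.01, and in NP KO-S, where 4 became 3 without Hand2. With a correlation of 0.5 between comparisons that share controls, 1 gene, Tbx20, differed between CSex4 and Deltaex4 in ESC, against 0 without it, and Tbx5 joined the 3 genes that differed between KO-L and KO-S in NP (4 in all). With the other WT pair, NP KO also gave 4 calls, with Hand2 in place of Tbx5. The deposited tables are named as paired, and which libraries of different groups pair is not known. Without a replicate block, the ratio of mean scaled reads kept the sign of all 27 called values, and 24 lay within 1 SE of the authors' value. The exceptions were Tbx20 in CSex4 (1.74), KO-L (1.90) and KO-L3D (1.18). Leaving out 1 library at a time gave 122 ratios, of which 1 reversed, Tbx20 in KO-L3D (from -0.027 to 1.82), and 15 moved by more than 1 SE without a change of sign. Tbx20 ranged from 1.26 to 2.23 in CSex4, from 0.91 to 2.48 in KO-L, from 1.55 to 2.50 in ESC KO and from 2.85 to 4.16 in NP KO. Hand2 ranged from -3.35 to -1.88 in NP WT against KO, and Tbx5 from 3.58 to 5.01 in ESC KO. These ratios carry no test. Depth limits Hand2, Gata5 and Mef2c most in ESC, where most libraries held few reads of them.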
